A study of Mus musculus and Homo sapiens with 12 samples.

Results

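The genes of cholesterol and fatty acid synthesis were followed in blood progenitors after deletion or knockdown of the RNA helicase DDX21. The set was a list of 34 genes, matched by symbol in each experiment. It gave 34 of 78932 human genes, and 35 of 55487 mouse genes because human SCD corresponds to mouse Scd1 and Scd2. The sterol branch held 24 genes in each species, and the fatty acid branch 11 mouse and 10 human genes. Every one of them passed the filter on low counts.

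The study made 12 polyadenylated RNA libraries, 3 in each of 4 groups. The mouse libraries came from E13.5 fetal liver LK cells (lineage-negative, Kit-positive progenitors), in mid-gestation. Ddx21f/f embryos, with loxP-flanked alleles and no Cre, formed the wild-type group (WT). Vav-Cre; Ddx21f/f embryos, in which Cre is driven by a promoter active in blood cells, formed the knockout group (cKO), so both share the floxed alleles. The human libraries came from hematopoietic stem cell-like cells derived from the embryonic stem cell line H1. Those cells had received lentivirus with the control hairpin shNC-mCherry or the hairpin shDDX21-mCherry and were sorted 2 days later as CD34+ CD45+ CD43+ shRNA+ cells. Each arm used a single hairpin. Whether the 3 libraries of a group stem from separate animals or cultures is not given, so p-values measure the spread between these libraries, which may be technical.

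Cells make cholesterol from acetyl-CoA through mevalonate, farnesyl diphosphate and squalene, and then through lanosterol and a series of ring and side-chain reactions. Fatty acids are built from the same acetyl-CoA by carboxylation, chain synthesis, elongation and desaturation. Both branches are driven by the SREBP transcription factors, encoded by SREBF1 and SREBF2, which the escort protein SCAP carries out of the endoplasmic reticulum unless the INSIG proteins hold it there. Dividing cells need both products for membranes.

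Total counts per library ran from 21116079 to 23898130 in the mouse and from 15289510 to 19798608 in the human experiment. For the targeted gene, WT libraries held 31438, 29393 and 30866 reads of Ddx21 against 6339, 6981 and 6208 in cKO libraries. The shNC libraries held 9012, 7128 and 8319 reads of DDX21 against 1336, 1168 and 1177 in shDDX21 libraries. The stem and progenitor markers were present in both experiments, with summed levels of 1649 to 1677 CPM (counts scaled to library size) in WT and 1794 to 1802 CPM in cKO, and of 3071 to 3117 CPM with shNC and 3206 to 3255 CPM with shDDX21. These sums hide opposite moves. By edgeR at an adjusted p under 0.05, 7 of 12 were higher and 3 lower in cKO, against 20.7% and 15.8% of genes tested. With shDDX21, 5 of 10 were higher and 5 lower, against 25.3% and 27.4%. CD34 stood at 0.26 and GATA2 at -1.12 on the log2 scale with shDDX21. The mouse WT and cKO groups were uneven within themselves. Over 14898 genes, the log2 ratio of WT replicate 3 to WT replicates 1 and 2 correlated with the transcripts' GC content (Pearson r = -0.465, a description across genes, which are not replicates), as did that of cKO replicate 2 to cKO replicate 1 (r = -0.549). Values without these 2 libraries are given below for the members with high GC content.

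In the controls the fatty acid branch held the most abundant members per length. In RPKM, reads per kilobase of exon scaled to library size, the mouse order was Scd2 (170.0 ± 4.21), Acly (80.6 ± 1.45), Fads2 (55.1 ± 0.627), Elovl1 (43.3 ± 1.23) and Fasn (41.8 ± 9.98; SD, n = 3 each). The SD of Fasn reaches over the level of Elovl1, so their order is not separated. In the human controls the order was SCD (384.9 ± 4.41), FASN (158.6 ± 2.45), FADS2 (145.3 ± 0.200), ACLY (115.7 ± 2.27) and INSIG1 (83.0 ± 0.903; SD, n = 3 each). SCD and its mouse forms are stearoyl-CoA desaturases, which place the first double bond in saturated chains. The lowest members were Fdps in the mouse (0.670 ± 0.102) and HSD17B7 in human cells (2.88 ± 0.429; SD, n = 3 each). Of the exon bases of Fdps, 26.7% lie in another annotated gene. How shared reads were counted is not given, so its level is uncertain. Length here covers all annotated exon bases of a gene, such as 10553 for FADS2 and 5245 for SCD, so these orders depend on the annotation. The 2 tables were scaled separately, so levels are compared within a species only.

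**Figure D1:**
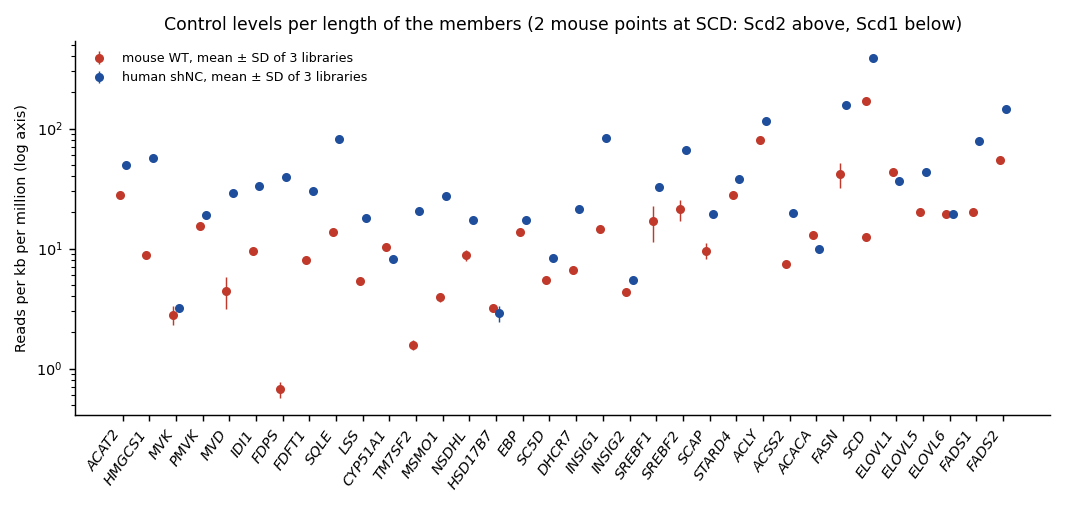
Control levels per length of every member (log axis, RPKM), mean ± SD of 3 libraries, WT mouse in red and shNC human in blue. SCD and its mouse form Scd2 stand highest, at 384.9 and 170.0, and mouse Fdps lowest, at 0.670.

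Promoter sequence upstream of the start was read for 28 mouse members from RefSeq (GRCm38.p6). The 250 bases before the start were searched on both strands for TCACNCCAC (a form of the sterol element bound by SREBP), CCAAT (bound by NF-Y, a partner of SREBP) and CACGTG (an E-box). None of the 3 motifs contains another. CCAAT was found in 18 of 20 sterol members (90%) and 4 of 8 fatty acid members (50%), against 37.5% of 27018 mouse genes. CACGTG was found in 5 of 20 sterol members (25%) and 1 of 8 fatty acid members (12.5%), against 6.86% of all genes. TCACNCCAC was found in 1 of 20 sterol members (5%), Hmgcs1, in 0 of 8 fatty acid members, and in 1.23% of all genes. Of 9 members called lower in cKO (edgeR, adjusted p under 0.05), 5 had sequence to search, and Sqle, Scd1, Scd2 and Fads1 had none. Those searched held CCAAT in 3 of 5 (60%) and CACGTG in 1 of 5 (20%). Members not called held these motifs in 18 of 22 (81.8%) and 4 of 22 (18.2%) of those searched. Of the 2 called higher, Elovl5 held both and Stard4 had no sequence to search. These matches are letters in a window and show no binding. Hmgcs1, the enzyme that makes HMG-CoA, is shown for its sterol element, Mvk, mevalonate kinase, for its 5 CCAAT matches, and Fasn, fatty acid synthase, for its 3. Shorter windows show the E-box of Insig1 and the CCAAT of Pmvk, phosphomevalonate kinase, both lower in cKO, and the E-box of Elovl5, an elongase that was higher. Each is printed 5′ to 3′ on the gene's strand, with motif letters on either strand in capitals.
Hmgcs1, chr13:119690101-119690350, plus strand: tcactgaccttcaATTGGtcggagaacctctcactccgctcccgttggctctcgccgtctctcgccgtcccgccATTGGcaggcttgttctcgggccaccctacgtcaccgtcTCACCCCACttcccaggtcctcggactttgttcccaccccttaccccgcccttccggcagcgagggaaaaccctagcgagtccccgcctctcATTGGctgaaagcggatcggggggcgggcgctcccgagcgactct
Mvk, chr5:114444019-114444268, plus strand: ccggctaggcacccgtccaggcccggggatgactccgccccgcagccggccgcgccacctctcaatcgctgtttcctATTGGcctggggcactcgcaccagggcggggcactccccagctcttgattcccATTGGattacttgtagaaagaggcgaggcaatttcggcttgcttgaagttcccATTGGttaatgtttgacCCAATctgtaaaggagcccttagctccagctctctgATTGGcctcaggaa
Fasn, chr11:120824548-120824797, minus strand: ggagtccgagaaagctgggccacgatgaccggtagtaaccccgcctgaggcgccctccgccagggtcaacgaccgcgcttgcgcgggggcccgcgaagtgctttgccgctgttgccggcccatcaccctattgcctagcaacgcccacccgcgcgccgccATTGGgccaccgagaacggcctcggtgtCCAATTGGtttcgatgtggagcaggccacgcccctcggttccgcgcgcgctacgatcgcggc
Insig1, chr5:28071284-28071343, plus strand: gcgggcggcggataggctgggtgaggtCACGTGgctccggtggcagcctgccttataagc
Pmvk, chr3:89454377-89454436, plus strand: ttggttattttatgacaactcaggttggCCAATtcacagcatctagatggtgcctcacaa
Elovl5, chr9:77917177-77917236, plus strand: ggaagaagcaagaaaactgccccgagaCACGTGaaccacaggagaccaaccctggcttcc

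In mouse LK cells few members moved, and the clearest falls were in the sterol sensor Insig1, in squalene epoxidase (Sqle) and in 3 desaturases (Scd1, Fads1 and Fads2). Of 35 members, 11 were called at an adjusted p under 0.05 (31.4%), 9 lower and 2 higher in cKO, against 36.5% of the 14918 genes tested (20.7% higher, 15.8% lower). The members' share called in either direction was thus near that of all genes. By direction it was 25.7% lower and 5.71% higher. Among the 31 members with a mean of at least 10 CPM, a cut chosen after seeing the data, 10 were called (32.3%, 8 lower and 2 higher), against 41.9% of the 8558 genes at that level (19.6% higher, 22.2% lower). The median absolute log2 fold change was 0.169 over the members and 0.260 over all genes. Tm7sf2, Scd1 and Fads2 were called lower by at least 0.5 on the log2 scale, against 5.90% of all genes (13.3% were higher by as much and 19.2% changed either way), and no member was called with 2-fold or more. Of 24 sterol genes, 6 were called (25%), but 3 without WT replicate 1, WT replicate 2, cKO replicate 2 or cKO replicate 3. The groups did not overlap for 17 of 35 members (48.6%), against 49.0% of all genes.

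The mevalonate steps lead from acetyl-CoA to farnesyl diphosphate. Of their 7 genes, 2 were called, both lower, with a median log2 fold change of -0.20. Pmvk fell by 0.28 on the log2 scale (SE 0.081, adjusted p 0.0304). Acat2, which joins acetyl-CoA units at the head of the pathway, fell by 0.15 (SE 0.046, adjusted p 0.0368). Pmvk lost its call without any single library except cKO replicate 1 (adjusted p 0.0583 to 0.0995), and Acat2 without any except WT replicate 3 (0.0914 to 0.126). Total counts also ended both calls (adjusted p 0.0691 for Pmvk and 0.231 for Acat2, at -0.087), and upper-quartile factors (0.127), no filter (0.0669) and DESeq2 (0.123) ended that on Acat2. Acat2 has a near-copy, Acat3, at 12 to 24 counts. Hmgcs1 had a log2 fold change of 0.17 (adjusted p 0.0550), called with total counts (0.24, adjusted p 0.0220) and with at least 10 counts in every library (0.18, adjusted p 0.0405), and Idi1, the isopentenyl diphosphate isomerase, 0.07 (adjusted p 0.347). Mvk (-0.20), Mvd (-0.37) and Fdps (-0.53), which encode mevalonate kinase, its decarboxylase and farnesyl diphosphate synthase, did not pass the test. Fdps rests on 317 counts over the 6 libraries, and 26.7% of its exon bases lie in another annotated gene.

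The steps from squalene to cholesterol gave 2 calls among 11 genes, both lower, with a median of 0.01. Sqle (chromosome 15, 59315077 to 59331192), an oxygen-dependent and rate-controlling step, stood at 80.5, 75.2 and 74.3 CPM in WT and 64.0, 59.8 and 60.1 CPM in cKO. All 3 cKO libraries lay below all 3 WT libraries, and Sqle fell by 0.32 (SE 0.053, adjusted p 0.00311). Tm7sf2, a sterol reductase with low counts, stood at 7.67, 6.77 and 6.36 CPM in WT and 5.71, 3.89 and 4.90 CPM in cKO. These groups did not overlap either (log2 fold change -0.52, SE 0.16, adjusted p 0.0376). The call on Tm7sf2 was lost without WT replicate 1 (adjusted p 0.123), WT replicate 2 (0.0884), cKO replicate 2 (0.0804) or cKO replicate 3 (0.102). The other 9 (Fdft1, Lss, Cyp51, Msmo1, Nsdhl, Hsd17b7, Ebp, Sc5d and Dhcr7) had log2 fold changes from -0.11 (Nsdhl) to 0.25 (Msmo1, adjusted p 0.0791, or 0.0406 with total counts). Cyp51, the lanosterol demethylase, had 0.17 (adjusted p 0.0675) and was called higher without WT replicate 3 (0.21, adjusted p 0.0404) and with total counts (0.24, adjusted p 0.0399). Of the exon bases of Fdft1, 18.8% overlap genes of the opposite strand, and no source gives the strandedness used for counting. Of those of Tm7sf2, 12.1% lie in Vps51 on the same strand. Over the 6 libraries Vps51 held 2520 counts against 782 for Tm7sf2, so the level of Tm7sf2 is uncertain.

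Among the genes that sense, control and carry sterols, Insig1 fell and Stard4 rose. Insig1 (chromosome 5, 28071363 to 28078662), which retains SCAP when sterols are plentiful, stood at 44.7, 44.8 and 45.9 CPM in WT and 31.8, 32.6 and 32.8 CPM in cKO. All 3 cKO libraries lay far below all 3 WT libraries, and Insig1 fell by 0.48 (SE 0.051, adjusted p 0.000418). Insig2, its relative, stood at 16.0, 14.9 and 14.2 CPM in WT and 17.2, 16.7 and 15.9 CPM in cKO. WT and cKO overlapped for it, and 0.14 (SE 0.080, adjusted p 0.195) did not pass. Stard4, a soluble sterol carrier, stood at 153.9, 155.2 and 157.9 CPM in WT and 176.1, 186.8 and 174.9 CPM in cKO. Its 3 cKO libraries were all higher, by 0.20 (SE 0.039, adjusted p 0.00634), and it missed the threshold with DESeq2 (adjusted p 0.0507).

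The SREBP genes themselves had lower means in cKO but wide spread. Srebf1 (chromosome 11, 60199089 to 60222581) stood at 120.1, 105.0 and 60.0 CPM in WT and 76.6, 36.4 and 50.7 CPM in cKO. WT replicate 3 lay below cKO replicate 1, so the groups overlapped, and -0.80 (SE 0.32, adjusted p 0.0904) did not pass. Srebf2 stood at 174.9, 164.7 and 118.7 CPM in WT and 143.2, 91.6 and 111.7 CPM in cKO, again overlapping (-0.40, SE 0.19, adjusted p 0.137). Leaving out WT replicate 3 gave calls for Srebf1 (-1.05, adjusted p 0.0250) and Srebf2 (-0.56, adjusted p 0.0397), and so did leaving out cKO replicate 1 (-1.11, adjusted p 0.0200, and -0.57, adjusted p 0.0293). Scap stood at 81.7, 73.1 and 60.1 CPM in WT and 89.4, 58.7 and 75.3 CPM in cKO, with 0.05 (SE 0.17, adjusted p 0.823).

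**Figure D2:**
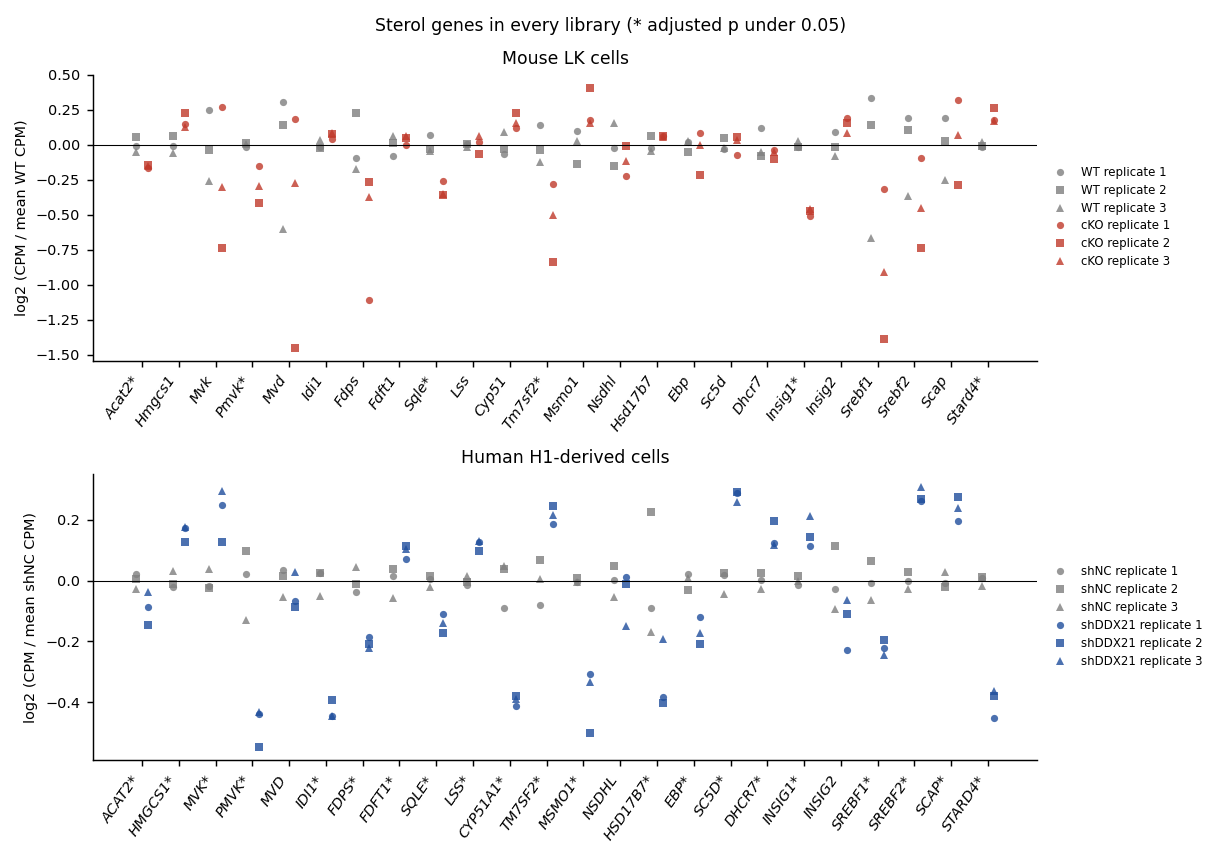
Sterol genes in every library, as log2 of CPM over the mean control CPM, with grey controls and coloured perturbed libraries, and an asterisk for an adjusted p under 0.05. Insig1 and Sqle separate by genotype in the mouse, while Srebf1, Srebf2, Mvd and Mvk spread widely within each genotype; in human cells 10 genes lie above and 11 below their controls.

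That spread moved with GC content. Of the mouse members, 7 had a GC content of 55% or more: Mvk, Pmvk, Mvd, Srebf1, Srebf2, Scap and Fasn. In WT replicate 3 their log2 ratio to the other WT libraries ran from -0.91 to 0.01, with a median of -0.52, against -0.25 to 0.24 for the other 28. In cKO replicate 2 the ratio to cKO replicate 1 ran from -1.63 to -0.26, with a median of -1.01, against -0.55 to 0.85. A fit with a GC-content offset, chosen after seeing the data, gave -0.62 for Srebf1 (adjusted p 0.0175), -0.23 for Srebf2 (adjusted p 0.0141) and 0.26 for Scap (adjusted p 0.00185), and all 3 were then called. In the same fit Elovl1 was called lower (-0.12, adjusted p 0.0149) and Pmvk lost its call (-0.15, adjusted p 0.204). Leaving out WT replicate 3 and cKO replicate 2 together, also chosen after seeing the data, gave -0.81 for Srebf1 (adjusted p 0.00552), -0.40 for Srebf2 (adjusted p 0.0136) and 0.20 for Cyp51 (adjusted p 0.0413), and ended the call on Pmvk (-0.21, adjusted p 0.0881). The libraries kept in that fit still differed by GC content. Over all genes with 55% GC or more, the median log2 deviation was 0.202 and 0.145 in WT replicates 1 and 2. It was 0.144 in cKO replicate 1 and -0.0799 in cKO replicate 3. The other members with high GC content, not called in that fit, stood at -0.24 for Mvd, -0.09 for Mvk, -0.19 for Fasn and 0.10 for Scap. Mvd was -0.01 without cKO replicate 2 alone and -0.60 without WT replicate 3 alone. Insig1, Sqle, Scd1, Fads1 and Fads2 were called lower in each of 15 alternatives, both of these included.

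**Figure D3:**
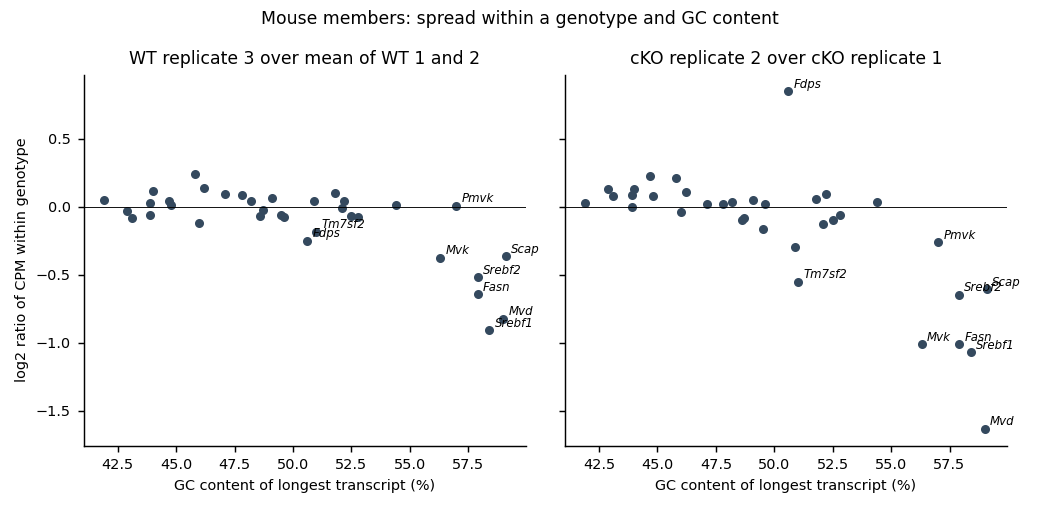
Spread within a genotype against GC content of the longest transcript (percent) for 35 mouse members; each point is a gene and the vertical axis a log2 ratio of CPM between WT libraries (left) or cKO libraries (right). Members with 55% GC or more fall to -0.91 on the left and -1.63 on the right, while most others lie near 0.

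In the mouse fatty acid branch 5 of 11 genes were called, 4 lower and 1 higher (45.5%, against 36.5% of all genes and 41.9% of genes with at least 10 CPM), with a median of -0.11 against 0.000574 over all genes. Without WT replicate 2 the calls were 3, all lower, and without cKO replicate 2 the median was -0.0012. The desaturases carried the falls. Scd1 (chromosome 19, 44394455 to 44407879) stood at 60.1, 59.6 and 63.7 CPM in WT and 41.1, 41.7 and 41.3 CPM in cKO (-0.56, SE 0.050, adjusted p 0.000164). Fads2, the delta-6 desaturase of polyunsaturated chains, stood at 179.1, 182.7 and 182.6 CPM in WT and 127.2, 130.3 and 121.7 CPM in cKO. In both genes the groups were far apart, and Fads2 had the smallest adjusted p of the mouse members (log2 fold change -0.52, SE 0.039, adjusted p 7.23e-05). Fads1, the delta-5 desaturase and a neighbour of Fads2 on chromosome 19, fell by 0.39 (SE 0.046, adjusted p 0.000630). Scd2, the most abundant member, fell by 0.15 (SE 0.048, adjusted p 0.0428) but lost its call without WT replicate 1, WT replicate 2, cKO replicate 2 or cKO replicate 3 (adjusted p 0.102 to 0.137). It also lost it with upper-quartile factors (0.0796), total counts (-0.087, adjusted p 0.187), at least 10 counts in every library (0.0626) and DESeq2 (0.0676). Scd1 and Scd2 are close paralogs, and reads common to both cannot be assigned with certainty. Elovl5, which elongates polyunsaturated chains, rose by 0.19 (SE 0.043, adjusted p 0.0131), and lost the call with DESeq2 (adjusted p 0.111), without the low-count filter (0.0530) and without WT replicate 2 (0.0604).

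The genes that supply acetyl-CoA and build the chain did not pass the test in the mouse. Acly stood at 434.2, 419.4 and 423.5 CPM in WT and 448.5, 410.1 and 443.5 CPM in cKO, with overlap. Acly, which makes cytosolic acetyl-CoA from citrate, Acss2, which makes it from acetate, and Acaca, which carboxylates it, had log2 fold changes of 0.03, 0.02 and 0.03 with SE of 0.043, 0.044 and 0.036. Fasn stood at 535.4, 505.5 and 332.9 CPM in WT and 532.8, 264.3 and 374.0 CPM in cKO, with -0.23 (SE 0.27, adjusted p 0.533), and -0.07 (adjusted p 0.677) with the GC-content offset. Elovl1 had -0.11 (adjusted p 0.0924) and Elovl6, which elongates palmitate, 0.01 (adjusted p 0.855).

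**Figure D4:**
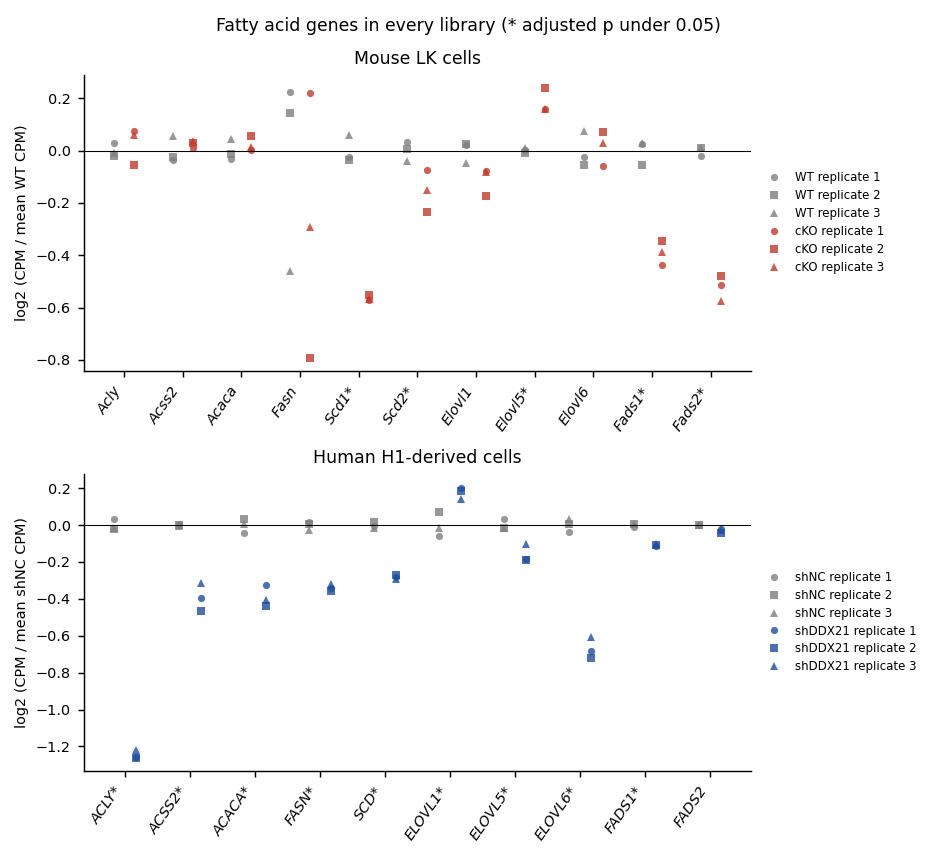
Fatty acid genes in every library, as log2 of CPM over the mean control CPM, grey for controls, coloured for perturbed libraries, an asterisk for an adjusted p under 0.05. Scd1, Fads1 and Fads2 fall in all 3 cKO libraries, and ACLY and ELOVL6 fall most in the human shDDX21 libraries.

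In human cells most members moved, by small amounts, and the fatty acid branch fell. Of 34 members, 30 were called (88.2%), 19 lower and 11 higher with shDDX21, against 52.7% of 20188 genes tested (25.3% higher, 27.4% lower). Every human member had a mean of at least 10 CPM, and among the 9913 genes at that level, a cut chosen after seeing the data, 73.5% were called (33.0% higher, 40.6% lower). The median absolute log2 fold change was 0.219 over the members and 0.304 over all genes. Replicates varied with a biological coefficient of variation of 2.23%, against 10.5% in the mouse, so smaller shifts were called in the human libraries. The groups did not overlap for 31 of 34 members (91.2%), against 57.4% of all genes, many of them under 10 CPM. The share without overlap was not taken for genes with at least 10 CPM alone.

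In the human fatty acid branch 8 of 10 genes were lower (80%) and 1 higher, against 27.4% lower over all genes and 40.6% lower among genes with at least 10 CPM. The median was -0.31 against 0.01 over all genes. Their summed level was 7019 to 7097 CPM with shNC and 5822 to 5873 CPM with shDDX21. ACLY (chromosome 17, 41866917 to 41930542, hg38) fell most, from 616.2, 594.6 and 597.0 CPM to 252.0, 251.6 and 259.2 CPM. This left 42.2% of the control level (-1.25 on the log2 scale, SE 0.023, adjusted p 5.67e-54), and 1.97% of the genes tested had a lower value. ACLY was the only member called with a change of 2-fold or more in either experiment. ELOVL6 (chromosome 4, 110045846 to 110199199, hg38) stood at 136.1, 140.3 and 143.1 CPM with shNC and 87.0, 85.0 and 91.8 CPM with shDDX21. No libraries overlapped, and ELOVL6 fell by 0.67 (SE 0.034, adjusted p 5.71e-28). These 2 were the members called with at least 0.5 on the log2 scale, against 23.8% of all genes (12.5% lower, 11.3% higher).

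The rest of chain building fell by less. ACSS2 and ACACA fell by 0.39 each on the log2 scale (SE 0.037 and 0.034), and FASN by 0.34 (SE 0.019). Thus all 4 genes for acetyl-CoA supply and chain building were lower. Of the desaturases, SCD fell by 0.28 (SE 0.018) and FADS1 by 0.11 (SE 0.020), and ELOVL5 fell by 0.16 (SE 0.030). FADS1 was not called with upper-quartile factors (-0.04, adjusted p 0.0840), and its gene shares 490 exon bases with FADS2 on the other strand. FADS2 stood at 1535, 1531 and 1532 CPM with shNC and 1512, 1487 and 1507 CPM with shDDX21, and -0.03 (SE 0.018, adjusted p 0.177) did not pass. FADS2 turned with the scaling, to -0.06 (adjusted p 0.00313) with total counts and 0.04 (adjusted p 0.0480) with upper-quartile factors. ELOVL1, which elongates long saturated chains, rose by 0.18 (SE 0.036).

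The human sterol branch split, with 11 of 24 genes lower (45.8%) and 10 higher (41.7%), against 40.6% and 33.0% of genes with at least 10 CPM. Its median was -0.07, and 0.00236 with upper-quartile factors. The summed level was 3533 to 3623 CPM with shNC and 3607 to 3668 CPM with shDDX21, with overlap between the groups. Among the mevalonate steps, PMVK (-0.47), IDI1 (-0.43), FDPS (-0.20) and ACAT2 (-0.09) were lower, HMGCS1 (0.16) and MVK (0.23) were higher, and MVD (-0.04, adjusted p 0.294) did not pass. ACAT2 lost its call with upper-quartile factors (adjusted p 0.635), with DESeq2 (0.0811), without shNC replicate 1 (0.0693) and without shDDX21 replicate 2 (0.142). Of its exon bases, 22.2% lie in other genes. HMGCS1 shares 37.7% of its exon bases with a gene of the opposite strand that held 0 counts.

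From squalene onward 5 genes were lower and 5 higher. CYP51A1 (-0.39), MSMO1 (-0.38) and HSD17B7 (-0.31), which take part in removing methyl groups from lanosterol and its products, were lower, as were EBP (-0.17), a sterol isomerase, and SQLE (-0.14). FDFT1 (0.10) and LSS (0.12), which make squalene and close the sterol ring, were higher. So were the sterol reductases TM7SF2 (0.22) and DHCR7 (0.15) and the sterol desaturase SC5D (0.28). NSDHL (-0.04, adjusted p 0.548), a partner in the same demethylation, did not pass. CYP51A1 shares 74.1% of its exon bases with other annotated genes, which makes its level uncertain. EBP shares 36.4% with a gene of the same strand, which held 26 counts over the 6 libraries against 3067 for EBP. HSD17B7 lost its call without shNC replicate 2 (adjusted p 0.121), and EBP without shNC replicate 1 (0.0623), shDDX21 replicate 2 (0.0731) or shDDX21 replicate 3 (0.0516), and also with upper-quartile factors (-0.10, adjusted p 0.193) and DESeq2 (0.0802). FDFT1 lost its call with total counts (adjusted p 0.0516) and without shNC replicate 3 (0.0961).

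The 2 SREBP genes moved apart in human cells. SREBF1 stood at 267.9, 281.6 and 257.6 CPM with shNC and 230.9, 235.1 and 226.9 CPM with shDDX21, a fall of 0.22 (SE 0.027, adjusted p 1.16e-10). SREBF2 (chromosome 22, 41833105 to 41907306, hg38) stood at 530.1, 541.5 and 520.6 CPM with shNC and 636.7, 638.9 and 656.9 CPM with shDDX21, a rise of 0.28 (SE 0.022, adjusted p 6.65e-19). Neither gene's groups overlapped.

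SCAP and INSIG1 rose with it. SCAP stood at 121.1, 120.0 and 124.0 CPM with shNC and 139.5, 147.3 and 143.7 CPM with shDDX21 (0.24, SE 0.032, adjusted p 1.40e-09). INSIG1 stood at 300.0, 306.5 and 302.6 CPM with shNC and 328.1, 334.9 and 351.2 CPM with shDDX21 (0.16, SE 0.025, adjusted p 1.10e-07). For both, every shDDX21 library was above every shNC library. INSIG2 stood at 21.1, 23.2 and 20.1 CPM with shNC and 18.3, 19.9 and 20.6 CPM with shDDX21, with overlap and no call (-0.13, adjusted p 0.146). STARD4 stood at 216.0, 216.5 and 212.0 CPM with shNC and 157.2, 165.3 and 166.9 CPM with shDDX21, a fall of 0.40 (SE 0.029, adjusted p 1.79e-20).

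The 2 experiments were compared for the same genes. Called lower in both were 6 mouse members (Acat2, Pmvk, Sqle, Scd1, Scd2 and Fads1, of which Scd1 and Scd2 share human SCD), against 10.4% of 10317 matched genes. No member was called higher in both (6.43% of matched genes). Tm7sf2 and Insig1 were lower in the mouse and higher in human cells (3.87% of matched genes), and Stard4 and Elovl5 were higher in the mouse and lower in human cells (8.98%). Over 35 pairs the log2 fold changes had a Pearson r of -0.212, given as a description, and the same sign in 18.

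The difference between the 2 effects was tested as an interaction, in a fit that shares one estimate of spread between mouse and human libraries. It was called for 21 of 35 pairs (60%), against 56.2% of matched genes, a share near the background. The mouse effect was higher in 11 (35.9% of matched genes) and lower in 10 (20.4%). ACLY had the smallest p, with a difference of 1.27 (mouse minus human, SE 0.050, adjusted p 2.93e-09), followed by INSIG1 at -0.64 (SE 0.046, adjusted p 3.96e-07), FADS2 at -0.49 (SE 0.039, adjusted p 7.81e-07) and STARD4 at 0.60 (SE 0.049, adjusted p 9.46e-07). The SE of the INSIG1 difference lies below that of its mouse effect alone (0.051). Sharing the spread can thus understate the mouse spread and make the interaction p-values too small. The experiments differ in species, cell source, gene deletion against knockdown, and time, and these cannot be told apart.

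**Figure D5:**
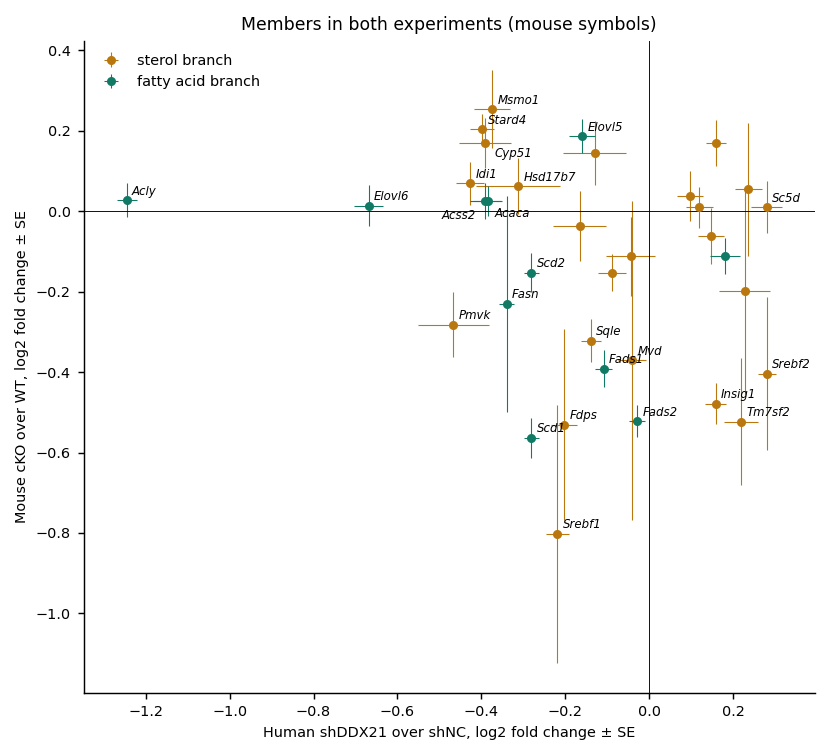
Log2 fold change ± SE of each member in the mouse (vertical) against the human experiment (horizontal), sterol branch in brown and fatty acid branch in green. Acly lies at -1.25 in human cells and 0.03 in the mouse, and Insig1 at 0.16 and -0.48.

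Lists of neighbouring pathways were read in the same fits, where 20.7% of all mouse genes were higher and 15.8% lower, and 25.3% of all human genes higher and 27.4% lower. With 10 to 22 genes a list, these counts are descriptions with no test, and the genes named are the called ones with the smallest p. Among 10 genes of SREBP processing and sterol-regulated degradation, 2 were higher and 4 lower in the mouse, with Mbtps2, a protease that releases SREBP, at 0.31 and the ubiquitin ligases Rnf139 and Rnf145 at -0.26 and -0.25. In human cells 1 was higher and 7 lower, with ERLIN1 at -1.04, PAQR3 at -0.73 and VCP at -0.13. The list medians were -0.15 and -0.17. Of 15 genes of the prenyl and dolichol branch, 3 were higher and 3 lower in the mouse (Zmpste24 0.19, Pggt1b 0.25, Rabggtb -0.24; list median -0.04) and 2 higher and 7 lower in human cells (ICMT -0.46, DHDDS 0.33, ZMPSTE24 -0.29; list median -0.12).

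For sterol uptake, transport and esterification, 4 of 14 mouse genes were higher and 2 lower, and 4 of 13 human genes were higher and 5 lower (medians 0.02 and -0.03). Lrp8, a lipoprotein receptor, rose by 0.40 in the mouse, where Gramd1c, a sterol transfer protein, rose by 0.72 and Tmem97 changed by -0.40. In human cells GRAMD1A, of the same family as Gramd1c, rose by 0.69, LRP8 changed by -1.10 and SOAT1, which esterifies cholesterol, by -0.72. Of 10 liver X receptor genes and targets, which respond to oxysterols, 3 were higher and 1 lower in the mouse, and 6 higher and 2 lower in human cells (medians 0.13 and 0.25). The sterol exporter Abcg1 rose from 16.8 ± 1.17 to 42.9 ± 6.10 CPM (SD, n = 3 each) in the mouse (1.35 on the log2 scale). Abca1, another exporter, rose by 0.87 in the mouse, and ABCA1 by 0.76 in human cells. The nuclear receptor Rxra was lower in both, at -0.85 in the mouse and -1.08 for human RXRA, and NR1H2, a liver X receptor, rose by 0.60 in human cells.

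Other genes of fatty acid synthesis and activation gave 10 lower and 5 higher of 22 in the mouse and 10 lower and 5 higher of 21 in human cells (medians -0.19 and -0.14). Acsl1, which activates long chains, changed by -0.72 and Hacd2, an elongation dehydratase, by 1.23 in the mouse, and Acsl6, of the same family as Acsl1, by -1.84. In human cells ACSL4 changed by -0.79, MLXIP, a glucose-responsive transcription factor, by 0.79 and ME1, which yields NADPH, by -1.28. For fatty acid oxidation, 8 of 19 mouse genes were higher and 2 lower, and 6 of 20 human genes were higher and 5 lower (medians 0.10 and -0.06). Cpt1a, the gate of mitochondrial import, changed by -0.63 in the mouse, and CPT1A by -0.92 in human cells. ACADVL and HADHB, enzymes of the oxidation cycle, rose by 0.50 and 0.36 in human cells. Mouse Eci2 rose by 0.21, and mouse Cpt1c rose from 2.09 ± 0.854 to 36.5 ± 7.94 CPM (SD, n = 3 each).

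Markers of other cells and of division also moved. Among all genes tested, 20.7% were higher and 15.8% lower in the mouse, and 25.3% higher and 27.4% lower in human cells. All 10 proliferation genes were lower in both experiments, from 6188 to 6470 CPM in WT to 4432 to 4633 CPM in cKO, and from 1616 to 1638 CPM with shNC to 873.4 to 885.9 CPM with shDDX21. Granulocyte and monocyte genes were lower for 8 of 11 in the mouse (751.1 to 1011 CPM in WT, 392.1 to 641.2 CPM in cKO) and 7 of 8 in human cells (904.9 to 919.9 CPM with shNC, 686.7 to 697.5 CPM with shDDX21). Hepatocyte genes, from cells that make much lipid, summed to 6.59 to 7.30 CPM in WT and 42.3 to 45.6 CPM in cKO. Of 20 hepatocyte genes 10 were tested and 8 were higher, with Alb at 12.1 and Afp at 14.4 CPM in cKO and Cps1 at 0 in every library. Of 3 human hepatocyte genes, 1 was higher and 1 lower (47.43 to 53.72 CPM with shNC, 69.45 to 72.14 CPM with shDDX21). Of 3 mouse macrophage genes tested, 1 was higher and 1 lower. Endothelial genes were higher for 6 of 10 in the mouse (90.5 to 114.8 CPM in WT, 140.5 to 175.0 CPM in cKO), and megakaryocyte genes for 5 of 9. Mouse erythroid genes were lower for 5 of 10 and higher for 3 (2172 to 2253 CPM in WT, 1526 to 1620 CPM in cKO). In human cells endothelial genes were higher for 5 and lower for 5 of 11 (2218 to 2276 CPM with shNC, 1934 to 1953 CPM with shDDX21), and macrophage genes were lower for 4 of 5 (128.6 to 139.6 CPM, then 76.1 to 82.1 CPM). Human erythroid genes were higher for 5 and lower for 3 of 10 (2072 to 2087 CPM with shNC, 1712 to 1734 CPM with shDDX21), and megakaryocyte genes were higher for 5 and lower for 1 of 8. The part of these shifts in the members' values was not tested, and in bulk RNA fewer cells of a type and less RNA per cell cannot be told apart.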

How the data were processed

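Raw counts per gene were deposited for 12 libraries. Per the submitters' processing notes, STAR, featureCounts and DESeq2 were used with mm10 and hg38; versions, strand and multi-mapping settings are not given in the sources used here. Per the labels' protocols, libraries were made from poly(A) RNA. The deposited tables of normalized signal equal the raw count over 1 constant per library (largest relative deviation 4.97e-10) and carry log2 columns over the control mean, per the file headers; they served for symbols only. All 35 mouse members had the same position in GENCODE M21 (GRCm38).

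Counts were tested with edgeR 4.0.16 (R 4.3.3): filterByExpr, TMM, quasi-likelihood, two-sided, Benjamini-Hochberg over all genes tested, each experiment alone; a gene was called at an adjusted p under 0.05. Calls across experiments used an interaction over 12 libraries with scaling within each. CPM use TMM-scaled library sizes, and per-length levels divide by the deposited exon length. With 3 against 3 an exact permutation test cannot go below 0.1. The fit of each experiment was tested on simulated data, which held no spread by GC content. The interaction was not tested in this way. Alternatives were RLE, upper-quartile and total-count scaling, no filter, at least 10 counts in every library, DESeq2 1.42.0, a replicate block, each library left out, a 2-fold change required as well, a GC-content offset, and 2 libraries left out together. Values in every library are given for members called with a log2 change of at least 0.5, for SREBF1, SREBF2, SCAP, INSIG1 and INSIG2 and for the 4 members with the smallest interaction p; values in every library for Sqle and Fasn were added after they were seen. Neighbour lists name up to 3 called genes with the smallest p. The members and lists were chosen with earlier results of these data known. Human GC content was not analysed here, and human symbols are known only for genes with one in the normalized table.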

Additional observations from a re-analysis of the deposited data

Results flagged for a closer look

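By edgeR's quasi-likelihood interaction test at a Benjamini-Hochberg adjusted p under 0.05, the mouse and human effects differed for 21 of 35 pairs (60%). Over 10317 matched genes the share was 56.2%, so the members lie near the background. Species, cell source, deletion against knockdown, and time cannot be told apart. Values are the mouse minus the human log2 fold change. In the sterol branch the mouse effect was higher for MSMO1 (0.63), STARD4 (0.60), CYP51A1 (0.56), IDI1 (0.50), HSD17B7 (0.38) and INSIG2 (0.28). It was lower for TM7SF2 (-0.74), SREBF2 (-0.68), INSIG1 (-0.64), SC5D (-0.27), DHCR7 (-0.21) and SQLE (-0.18). In the fatty acid branch it was higher for ACLY (1.27), ELOVL6 (0.68), ACSS2 (0.42), ACACA (0.41) and ELOVL5 (0.35). It was lower for FADS2 (-0.49), ELOVL1 (-0.29), SCD read through Scd1 (-0.28) and FADS1 (-0.28). Read through Scd2, the more abundant mouse form, SCD had a difference of the other sign (0.13, adjusted p 0.0527). That pair was not called in the main fit and was called under 4 of 19 alternatives. INSIG2 kept its call under 6 and HSD17B7 under 11 of 19 alternatives. SQLE, SC5D and DHCR7 lost theirs with total counts, and DHCR7 also without cKO replicate 2, shNC replicate 3 or shDDX21 replicate 2 (adjusted p 0.0506, 0.0614 and 0.0616).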

How the results depend on the processing

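Mouse counts were small and moved easily. The 6 sterol calls became 3 to 8 with 1 library left out, with 1 to 2 higher and 2 to 6 lower (2 lower without WT replicate 1, WT replicate 2, cKO replicate 2 or cKO replicate 3), and the 5 fatty acid calls became 3 to 5, with 0 to 1 higher and 3 to 4 lower. Higher sterol calls were 4 with total counts (3 lower), 2 with at least 10 counts in every library, with the GC-content offset or with WT replicate 3 and cKO replicate 2 left out together, and 0 with DESeq2. DESeq2 gave 3 fatty acid calls, 0 of them higher, and without the filter 0 were higher. Over all mouse genes, leaving out 1 library gave 3717 to 5671 calls, 2349 to 2963 higher and 1368 to 2708 lower, and the GC-content offset gave 3560 lower. Human counts were steadier, at 19 to 21 sterol calls and 9 fatty acid calls with 1 library left out, though upper-quartile factors gave 2 higher fatty acid calls. With a 2-fold change required as well, 0 mouse members of either branch, 0 human sterol genes and 1 human fatty acid gene (0 higher, 1 lower) remained called, with 1354 mouse genes (1085 higher, 269 lower) and 1450 human genes (676 higher, 774 lower) overall. The mouse sterol median of -0.05 was 0.016 with total counts and 0.013 without cKO replicate 2.

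Member pairs with a higher mouse effect numbered 9 to 12 and with a lower one 9 to 12 with 1 library left out. Signs turned only near 0 or within wide spread. Lss had log2 values of -0.00536, -0.00652, -0.00553 and -0.036 with RLE, no filter, DESeq2 and the GC-content offset. Ebp had 0.028 with total counts and 0.068 with 2 libraries left out. Sc5d had -0.00472, -0.00626, -0.00464, -0.038 and -0.016 with RLE, no filter, DESeq2, the offset and 2 libraries left out. Dhcr7 had 0.00462 with total counts, and the offset gave -0.024 for Acss2, -0.019 for Acaca and -0.039 for Elovl6, which had -0.00194, -0.00279 and -0.00194 with RLE, no filter and DESeq2. Upper-quartile factors gave 0.028 for MVD, 0.024 for NSDHL and 0.040 for FADS2, the last with an adjusted p of 0.0480. The interaction turned for ACAT2 (0.032), FDFT1 (0.036) and NSDHL (0.029) with total counts, and for HMGCS1 with RLE (-0.00847), upper-quartile factors (-0.032) and 2 libraries left out (-0.035). With 1 library left out the mouse ranges were -0.50 to 0.028 for Mvk, -0.00285 to 0.069 for Fdft1, -0.020 to 0.059 for Lss, -0.089 to 0.057 for Ebp, -0.00531 to 0.060 for Sc5d, -0.10 to 0.000237 for Dhcr7, -0.084 to 0.21 for Scap, -0.51 to 0.000414 for Fasn and -0.017 to 0.060 for Elovl6. NSDHL ranged from -0.075 to 0.00408 in human cells, and the interaction from -0.021 to 0.037 for HMGCS1, -0.71 to 0.030 for MVD, -0.14 to 0.013 for NSDHL and -0.17 to 0.34 for FASN. The cause of these turns was not tested.

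Libraries shared only a number: same-numbered mouse deviations correlated at 0.449, -0.263 and 0.0389, and human ones between -0.0178 and 0.00206. With a replicate block the mouse calls were 6 sterol and 4 fatty acid genes and the human calls 21 and 9. Under it Acat2 (adjusted p 0.0759) and Scd2 (0.0518) lost their calls and Srebf1 (0.0364) gained one. Fdps, Tm7sf2, Mvd and Mvk had the lowest mean levels among the mouse members, under 10 CPM, and the part of depth in their values was not tested. Srebf1 was also called without the filter (adjusted p 0.0313) and Srebf2 with DESeq2 (0.0293).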
